A study of Saccharomyces cerevisiae with 78 samples.

Results

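RPL30, RPL22B, YRA1 and DBP2 are 4 budding yeast genes whose own products limit the splicing or the level of their transcripts. They were described here by every array feature that carried 1 of the 4 gene symbols. That gave 12 of the 1536 features on the array, an exon, a splice junction and an intron feature for each gene, and 4 of the 982 named genes. Each feature was followed in 17 *Saccharomyces cerevisiae* strains, none of which lacked the intron of any of the 4 genes.

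RPL30 encodes a protein of the large ribosomal subunit that binds a structure near the start of the intron of its own transcript and stops the spliceosome from completing assembly there. RPL22B is the less expressed copy of the gene pair for large subunit protein Rpl22, which binds the RPL22B intron and inhibits its removal. YRA1 encodes an essential adaptor that helps to load the mRNA export receptor onto transcripts. Its unusually large intron is spliced poorly when Yra1 is in excess, and the unspliced RNA then leaves the nucleus and is degraded. DBP2 encodes a DEAD-box RNA helicase that acts on nascent transcripts and in ribosome biogenesis, and its long intron takes part in holding down its own expression. In each case an intron makes the amount of mature mRNA depend on the protein that the mRNA encodes.

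Each strain lacked precisely 1 intron of a ribosomal protein gene (written Di), made in a diploid and recovered as haploid spores. It was compared with wild type derived from the same parent, both grown in rich medium (YEPD) to mid-log phase. Strains rpl2bDi, rpl23aDi, rpl34aDi, rpl35aDi, rpl40bDi, rps8aDi, rps9bDi, rps14aDi and rps14bDi had 3 replicates. Strains rpl2aDi, rpl16aDi, rps9aDi and rps21bDi had 2, and rpl24aDi, rpl29Di, rpl31aDi and rps23aDi had 1. A replicate was a pair of arrays with the dyes swapped, so the 78 arrays gave 39 values per feature. Each value is the log2 of mutant signal divided by wild-type signal, averaged over 6 spots per feature and then over the dye pair. Errors are SDs between replicates. A feature was called when its strain mean differed from 0 with an adjusted p below 0.05 in limma.

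The exon feature reports total mRNA, the junction feature spliced mRNA and the intron feature unspliced RNA together with any excised intron that persists. Which of a gene's 3 features was which was read from their places on the array, with the deleted introns as examples. The feature of the deleted intron was the lowest of the gene in 17 of 17 strains, and below 0 in both dye orientations in all 17. Because the reading was built on these introns, the count of lowest features is no independent check of it. Exon and junction features were told apart by place alone in every gene. RPL22B was placed by a layout step used for 15 genes. None of these lost its intron in any strain, so its 3 kinds had no such example. The features also differed in completeness. DBP2 junction lacked 0.214% of its spots and YRA1 exon and DBP2 exon 0.641% each, whereas RPL30 intron lacked 17.5% and YRA1 junction 21.8%. All 12 had a value on every array except DBP2 intron, which had one on 77 of 78.

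Between 83 and 3552 of the 9216 spots on an array had no value. The first part of the array titles took 4 forms, which were read as slide batches and called A to D here. The labels do not say what these forms stand for. By this reading 11 strains had arrays in more than 1 batch. Replicates of a strain that were both in batch C resembled each other more (r 0.36 to 0.70 over features, 8 pairs) than other replicate pairs did (r -0.18 to 0.38, 23 pairs). Whether they shared a culture was not stated, so p-values may measure technical spread. MFA2, the gene for the a-factor pheromone precursor, was below -3 in 23 of 39 replicates, which marks a mutant of the other mating type than its reference.

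The 4 genes changed in few strains. Of 204 combinations of feature and strain, 5 were called, 2 of them higher and 3 lower than wild type, against 0.984% of all combinations on the array (243 of 24706). Without the features of the gene whose own intron a strain lacked, which the 4 genes never had, that background was 0.888% (219 of 24652). All 5 lay in rpl40bDi and rpl2bDi. In rpl40bDi 3 of the 12 features were called, where 8.17% of all features were. In rpl2bDi 2 of 12 were called, against 1.78% of all features. At an unadjusted p under 0.05 there were 25 combinations (12.3%, against 9.37% on the whole array). The median of the 204 strain means was -0.03, and 90 of them were above 0.

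**Figure D1:**
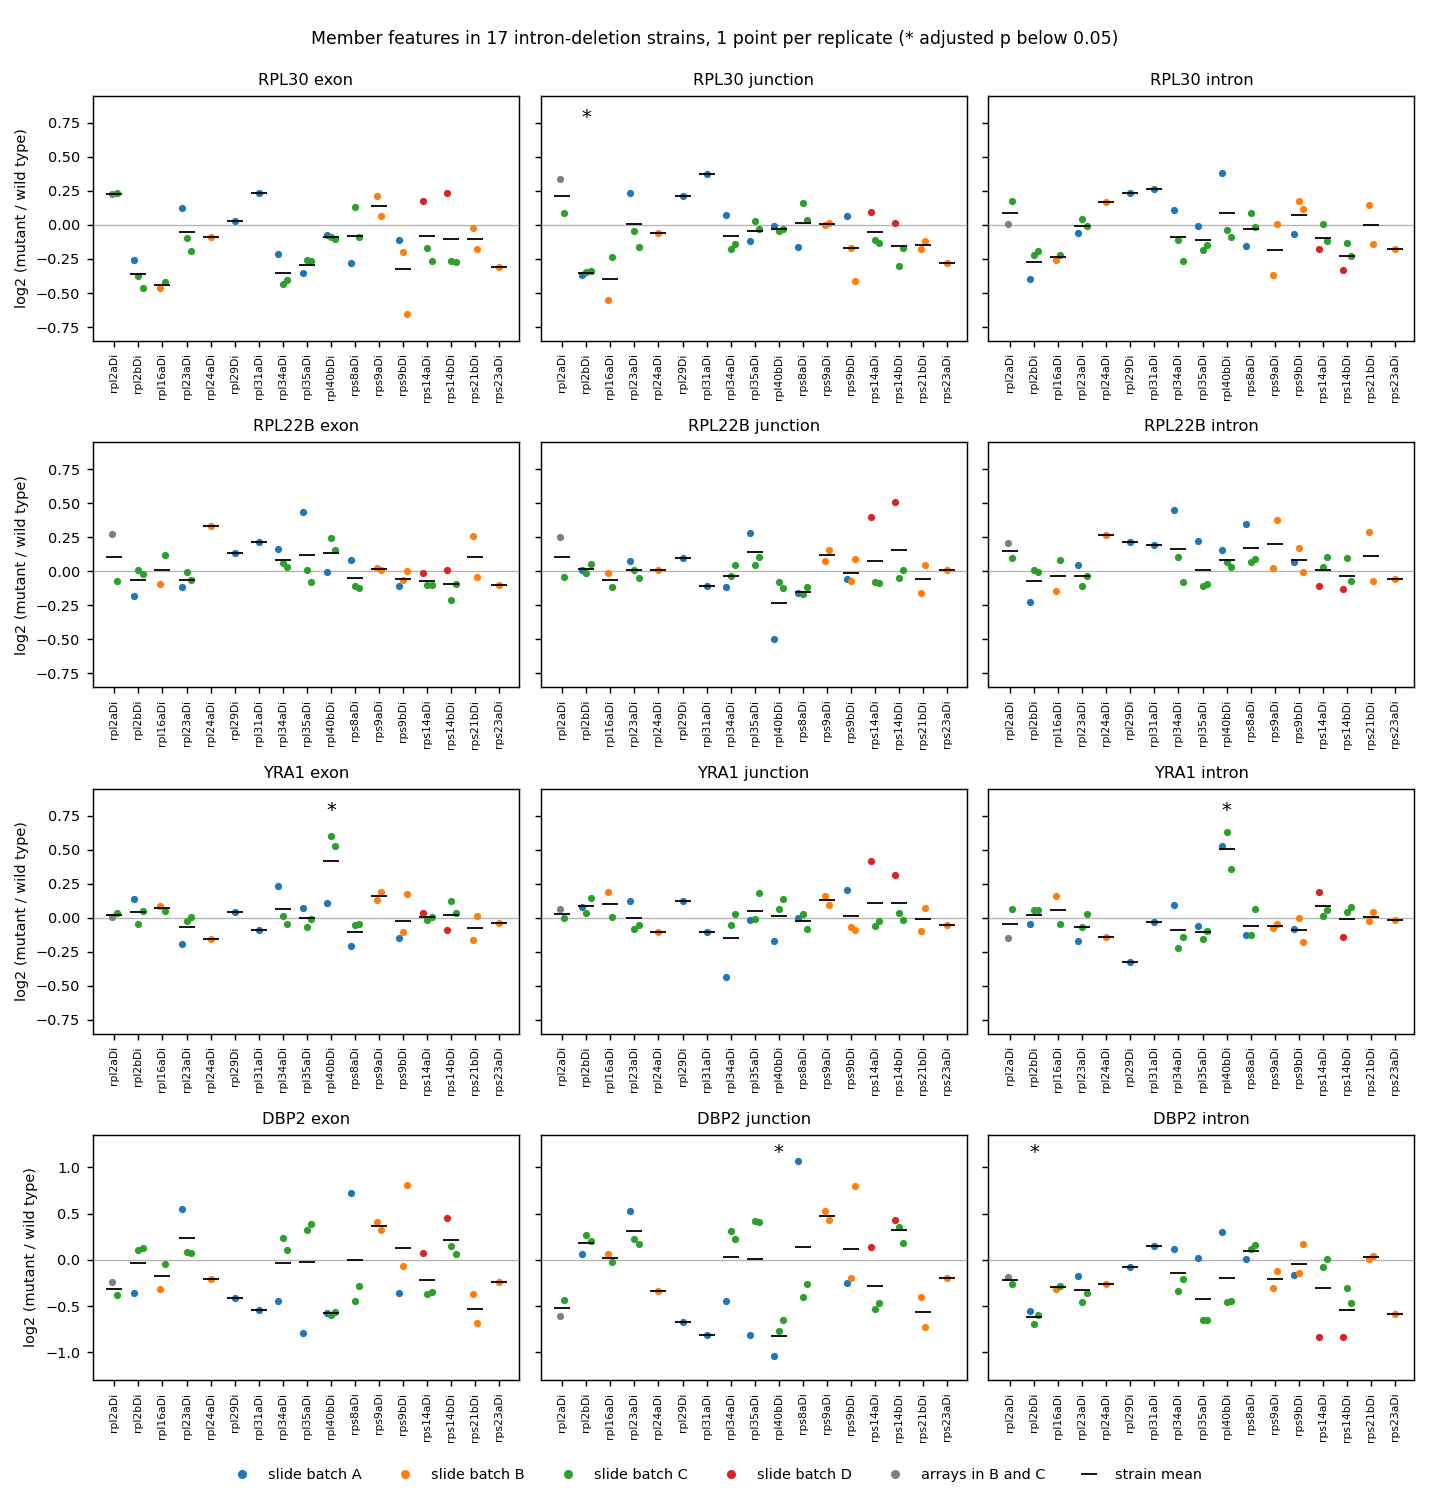
Each of 12 panels plots 1 feature, with the 17 strains on the x axis and the log2 ratio of mutant over wild type on the y axis. Points are replicates coloured by slide batch, bars are strain means and asterisks mark adjusted p below 0.05; the DBP2 panels have a wider y axis. YRA1 intron stands at 0.51 in rpl40bDi with all other strain means between -0.32 and 0.09, and DBP2 exon and junction spread most.

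The intron and exon features of YRA1, but not its junction feature, were called higher in rpl40bDi. YRA1 intron was the single member feature that differed over the 17 strains. In rpl40bDi, which lacks the intron of a gene for a ubiquitin fused to large subunit protein L40, YRA1 intron read 0.53, 0.63 and 0.36 in the 3 replicates. The other 36 replicates lay between -0.32 and 0.19. How many of all features stand apart like this, over all replicates or within a slide batch, was not counted. The mean was 0.51 ± 0.14 (SD, n = 3), a 1.42-fold rise (adjusted p = 1.13e-05, limma), and the ratio was above 0 on 6 of 6 arrays. In batch A the rpl40bDi replicate at 0.53 stood above the 8 others, which reached 0.10, and in batch C the pair at 0.63 and 0.36 stood above the 16 others, which reached 0.08.

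YRA1 exon rose in the same strain. It read 0.11, 0.60 and 0.53, a mean of 0.41 ± 0.26 (SD, n = 3; 1.33-fold; adjusted p = 0.000730, limma). The first of these, from batch A, fell within the range of the 8 other batch A replicates (-0.21 to 0.23), whereas both from batch C exceeded the 16 others (highest 0.12). On single arrays it was above 0 on 5 of 6, with the lowest at -0.23. The call was lost without replicate 2 (mean 0.32, adjusted p = 0.0698), with a term for replicates with low MFA2 (0.40, adjusted p = 0.0695) and with the batch C replicates averaged to 1 (0.34, adjusted p = 0.166, limma).

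YRA1 junction did not follow. It read -0.17, 0.06 and 0.14 in rpl40bDi, a mean of 0.01 ± 0.16 (SD, n = 3; adjusted p = 0.973), on spots of which many lacked a value. The features read as exon and intron were thus both above wild type while the mean of the feature read as junction was near 0. In an alternative run, the intron log2 ratio minus the junction log2 ratio was called for YRA1 in rpl40bDi. The share of all genes called in that run was not counted, and YRA1 junction lacked 21.8% of its spots. The main measure, intron minus exon, was 0.09 there and was not called.

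Tested against the mean of the other 16 strains, YRA1 intron was 0.56 higher (adjusted p = 7.55e-06) and YRA1 exon 0.42 higher (adjusted p = 0.00121) in rpl40bDi, where 5.88% of all features were called in that test. Over all strains, YRA1 intron was the single member feature whose strain means differed (moderated F = 5.01, adjusted p = 0.00923), against 3.15% of features, or 1.79% without those of genes that lost their intron in a strain. The F test for YRA1 exon gave adjusted p = 0.203.

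In the 16 other strains YRA1 stayed close to wild type. The exon means ran from -0.15 in rpl24aDi to 0.16 in rps9aDi, the junction means from -0.15 in rpl34aDi to 0.13 in rps9aDi, and none was called. The lowest intron value was -0.32 in the single replicate of rpl29Di (adjusted p = 0.399, limma). Ordered by level, the gap between rpl40bDi and the next strain was 0.25 for the exon (unadjusted p = 0.0434, limma) and 0.42 for the intron (unadjusted p = 0.000129, limma). No other neighbouring pair of strains was under 0.05. The order came from the same values and each feature had 16 such gaps, so these p-values do not measure how far a strain is separated.

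**Figure D2:**
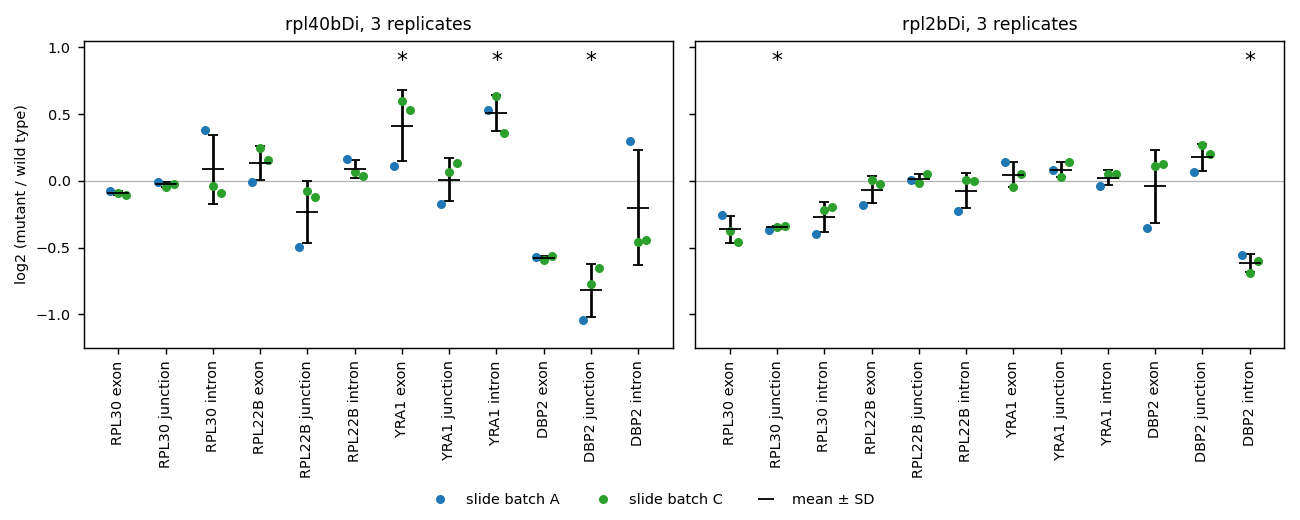
The 12 features are on the x axis and the log2 ratio of mutant over wild type is on the y axis, for the 3 replicates of rpl40bDi (left) and of rpl2bDi (right), coloured by slide batch. Black bars are means with SD and asterisks mark adjusted p below 0.05. In rpl40bDi YRA1 exon and intron average 0.41 and 0.51 and DBP2 junction -0.82; in rpl2bDi RPL30 junction averages -0.35 and DBP2 intron -0.62.

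DBP2 moved the other way from YRA1 in rpl40bDi. DBP2 junction read -1.04, -0.77 and -0.65, all below 0, with a mean of -0.82 ± 0.20 (SD, n = 3), which was 1.77-fold lower than wild type (adjusted p = 0.0262, limma). All 6 arrays were below 0. In batch A the value lay below the 8 others (lowest -0.81), and in batch C both lay below the 16 others (lowest -0.53). The call was lost without any 1 of the 3 replicates (adjusted p 0.0901 to 0.167, limma), with slide batch in the fit (-0.66, adjusted p = 0.165) and with a term for replicates with low MFA2 (-0.41, adjusted p = 0.638).

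DBP2 exon was close in all 3 replicates of rpl40bDi at -0.57, -0.59 and -0.57, a mean of -0.58 ± 0.015 (SD, n = 3). It was not called (adjusted p = 0.100), since the fit uses the spread of DBP2 exon over all strains. DBP2 intron differed between batches in rpl40bDi, at 0.30 in batch A and at -0.46 and -0.44 in batch C (mean -0.20, adjusted p = 0.501, limma).

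In rpl2bDi, which lacks an intron of 1 of the pair of genes for large subunit protein L2, the intron of DBP2 was the feature that fell. It read -0.56, -0.69 and -0.60, a mean of -0.62 ± 0.069 (SD, n = 3), 1.53-fold lower than wild type (adjusted p = 0.0262, limma). DBP2 exon in the same replicates read -0.36, 0.11 and 0.13, and DBP2 junction 0.07, 0.27 and 0.20, so neither followed. In batch A the intron value stood below the 8 others (lowest -0.17). In batch C the 2 values did not stand apart from the 16 others, which reached -0.65. The call was lost without any 1 replicate (adjusted p 0.108 to 0.220, limma) and with the term for low MFA2 (-0.69, adjusted p = 0.264).

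DBP2 intron was below 0 in 14 of 17 strain means, from -0.62 in rpl2bDi to 0.15 in rpl31aDi. In rps14bDi, without the intron through which protein S14 limits its own gene, DBP2 intron read -0.84, -0.30 and -0.47 (mean -0.54 ± 0.27, SD, n = 3; adjusted p = 0.0703, limma). In rps14aDi the batch D replicate read -0.83 and the batch C pair -0.08 and 0.01. The lowest values of both strains were thus from batch D. In rps14aDi the batch D replicate also differed from the batch C pair in MFA2 (-0.19 against -4.50 and -3.69).

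DBP2 had the widest spread of the 4 genes. The SD between replicates of a strain was 0.39 for the exon and 0.42 for the junction, compared with 0.13 for YRA1 exon, 0.14 for RPL22B exon and 0.17 for RPL30 exon. In rps8aDi DBP2 exon read 0.73 in batch A and -0.44 and -0.28 in batch C, and DBP2 junction 1.07, -0.41 and -0.26. MFA2 in these replicates was 0.49 in batch A and -3.74 and -3.62 in batch C. Slide batch and mating type thus cannot be told apart in rps8aDi. In rpl35aDi, where MFA2 was above -3 in all 3 replicates, DBP2 exon read -0.79 in batch A and 0.32 and 0.38 in batch C. Replicates of 1 strain thus stood on both sides of wild type, and the strain means of -0.03 in rpl35aDi and 0.0016 in rps8aDi describe none of them.

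Other low DBP2 means came from strains with few replicates. In rps21bDi the exon read -0.37 and -0.69 (mean -0.53 ± 0.22, SD, n = 2; adjusted p = 0.883) and the junction -0.40 and -0.73 (mean -0.57 ± 0.24, SD, n = 2; adjusted p = 0.883, limma). In rpl2aDi the junction read -0.61 and -0.44 (mean -0.53 ± 0.12, SD, n = 2; adjusted p = 0.995, limma). The single replicates of rpl31aDi gave -0.81 and of rpl29Di -0.67 for the junction. The highest exon and junction means were those of rps9aDi, 0.37 and 0.48. The largest gap between neighbouring strains in the order of DBP2 levels was 0.14 for the exon, 0.20 for the junction and 0.11 for the intron.

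RPL30 was lower than wild type in rpl2bDi. RPL30 junction read -0.36, -0.34 and -0.34, a mean of -0.35 ± 0.014 (SD, n = 3), 1.27-fold lower (adjusted p = 0.0262, limma), with 5 of 6 arrays below 0. RPL30 exon read -0.25, -0.37 and -0.46 (mean -0.36, adjusted p = 0.0566) and RPL30 intron -0.40, -0.22 and -0.19 (mean -0.27, adjusted p = 0.121). The 3 features were therefore low together, and the junction passed the test. In batch A the junction value lay below the 8 others (lowest -0.16) and in batch C both lay below the 16 others (lowest -0.30). The call was lost without any 1 replicate (adjusted p 0.142 to 0.192, limma), although the mean stayed between -0.35 and -0.34, and with the term for low MFA2 (-0.22, adjusted p = 0.520).

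RPL30 exon had low means in further strains that did not pass. It read -0.47 and -0.42 in rpl16aDi (mean -0.44, adjusted p = 0.108) and -0.21, -0.44 and -0.41 in rpl34aDi (mean -0.35, adjusted p = 0.0701). In rpl35aDi it read -0.35, -0.26 and -0.27 (mean -0.29, adjusted p = 0.290, limma). Every replicate of these 3 strains was below 0. In rps9bDi, at -0.11, -0.20 and -0.65, the mean of -0.32 was set mainly by replicate 3. The exon was above 0 in 4 of 17 strains, with the highest means of 0.23 in rpl2aDi (replicates 0.23 and 0.23) and in the single replicate of rpl31aDi. The F tests over strains gave adjusted p = 0.129 for RPL30 exon and 0.0966 for RPL30 junction. The largest gap between neighbouring strains in the order of level was 0.19 for the exon and 0.20 for the junction. With slide batch in the fit both exon and junction passed the F test, but the share of all features that passed in that fit was not counted.

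No RPL22B feature was called in any strain. Exon means ran from -0.10 in rps23aDi to 0.33 in the single replicate of rpl24aDi (adjusted p = 0.598), and intron means from -0.07 in rpl2bDi to 0.27 in rpl24aDi. The lowest junction mean was -0.23 in rpl40bDi (replicates -0.50, -0.08 and -0.12; adjusted p = 0.153, limma), where the batch A replicate lay apart from the batch C pair. RPL22A, the more expressed copy for the same protein, was not called either, with exon means from -0.11 in rpl16aDi to 0.16 in rpl24aDi.

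Intron retention was assessed with the Intron Accumulation Index, in which the exon log2 ratio of a replicate is subtracted from its intron log2 ratio. None of the 68 combinations of member and strain was called in limma, against 0.753% of all genes and strains (29 of 3851). That background includes the deleted introns themselves, and without them it was 0.339% (13 of 3834). At an unadjusted p under 0.05 there were 4 of the 68 (5.88%), against 7.98% of all indices with the deleted introns left out. None of the 4 indices passed the F test over strains (0 of 4, lowest adjusted p = 0.486), against 11.8% of genes, or 4.3% without the genes that lost their intron in a strain. The median of the 68 was 0.03, and 38 were above 0.

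**Figure D3:**
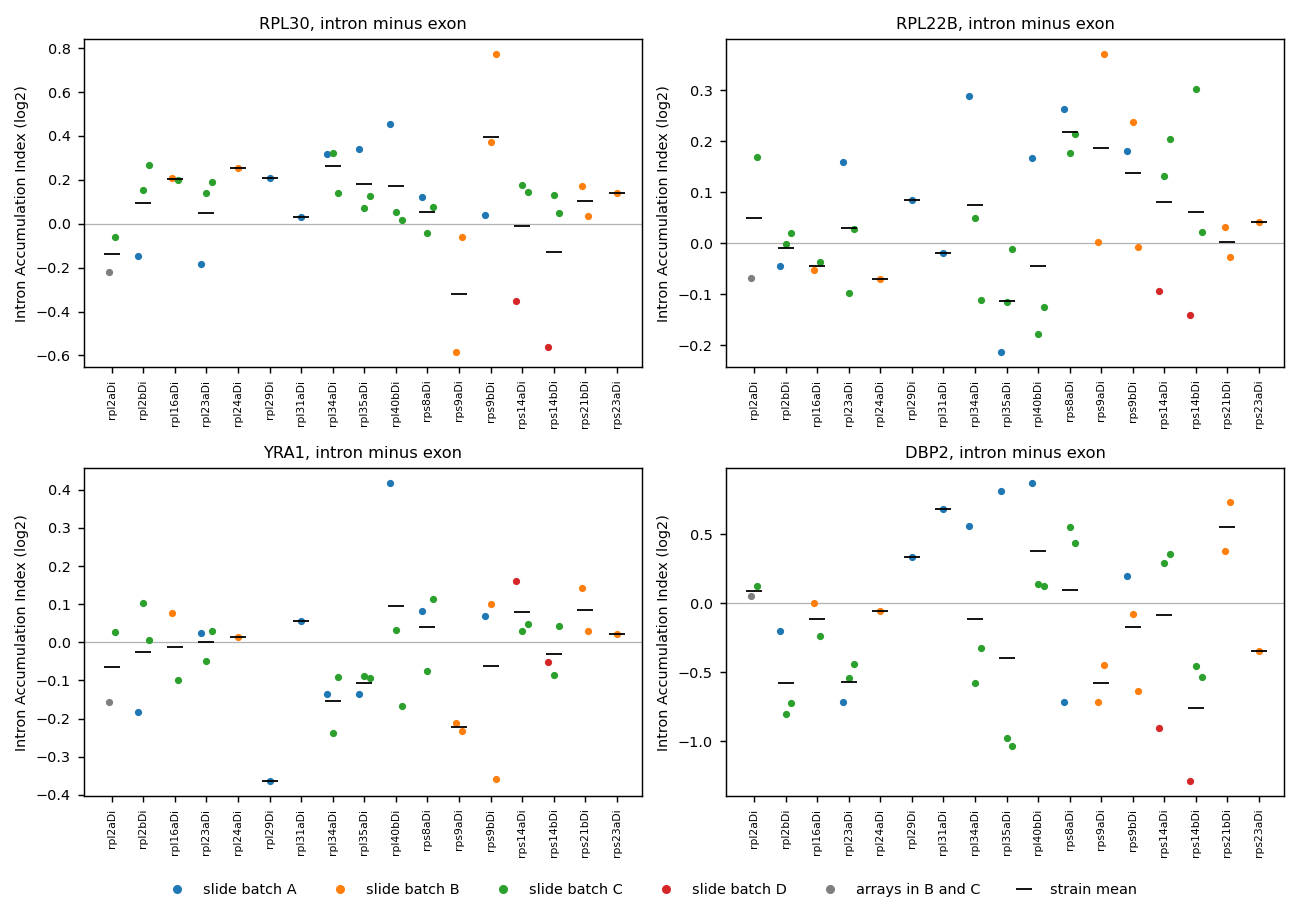
The Intron Accumulation Index (intron minus exon log2 ratio, y axis, with its own scale in each panel) is plotted for the 4 genes over the 17 strains. Points are replicates coloured by slide batch and bars are strain means. The DBP2 index spans -1.29 to 0.87 over replicates, against -0.21 to 0.37 for RPL22B.

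The DBP2 index varied most. Its lowest mean was -0.76 ± 0.46 in rps14bDi (replicates -1.29, -0.45 and -0.54; adjusted p = 0.276, limma), with all 3 below 0. The index was also below 0 in every replicate of rpl2bDi (-0.20, -0.80 and -0.72), rpl23aDi (-0.72, -0.54 and -0.44) and rps9aDi (-0.71 and -0.44). It was above 0 in both replicates of rps21bDi (0.38 and 0.73). In rpl35aDi it read 0.82 in batch A and -0.98 and -1.03 in batch C, the reverse of the order of DBP2 exon there. For RPL30 the means ran from -0.32 in rps9aDi (-0.58 and -0.06) to 0.40 in rps9bDi (0.04, 0.37 and 0.77; adjusted p = 0.268), and for RPL22B from -0.11 in rpl35aDi to 0.22 in rps8aDi. The YRA1 index in rpl40bDi was 0.09 (replicates 0.42, 0.03 and -0.17; adjusted p = 0.751, limma). Exon and intron were both high in the batch C pair, whereas the batch A replicate read 0.11 for the exon and 0.53 for the intron.

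The 3 features of a gene did not always vary together over the 39 replicates. DBP2 exon and junction ran nearly in parallel (r = 0.94), and RPL30 exon and junction did so less closely (r = 0.81), compared with a median of 0.28 over 204 other genes. YRA1 (r = 0.01) and RPL22B (r = 0.12) lay below that median. Exon and intron gave r = 0.64 for YRA1, 0.54 for RPL22B and 0.27 for RPL30, but -0.33 for DBP2, with a median of 0.10 over 199 other genes. DBP2 junction and intron were also opposed (r = -0.40). With strain means taken out, the YRA1 exon and intron value was 0.28, while those of DBP2 were 0.94 for exon and junction and -0.37 for exon and intron. These are descriptions, since the points share arrays, slide batches and, within a strain, a genotype.

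**Figure D4:**
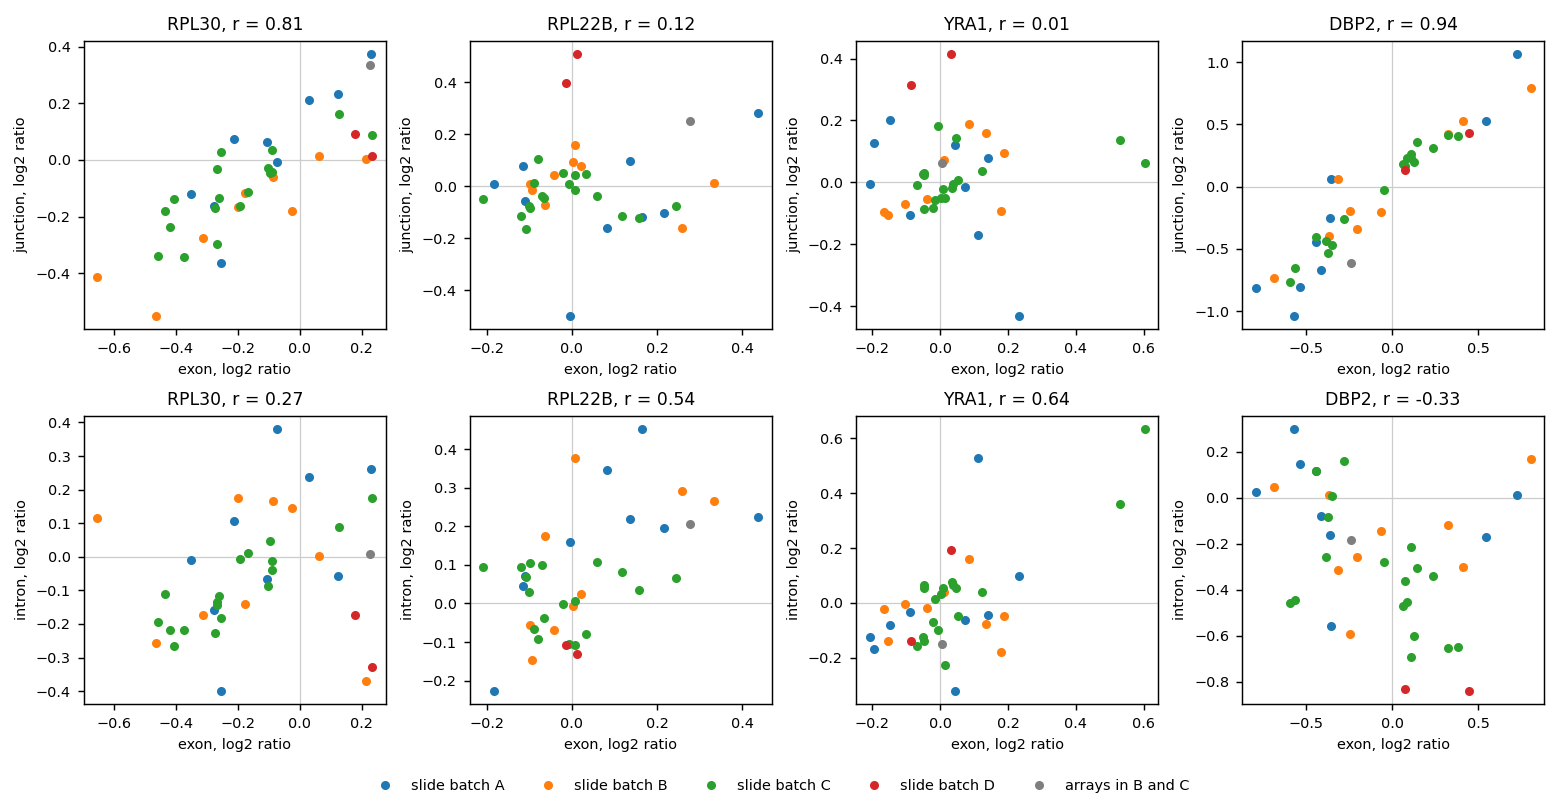
Each panel sets the exon log2 ratio (x axis) against the junction (top) or intron (bottom) log2 ratio (y axis) of 1 gene, with 39 replicates coloured by slide batch and Pearson's r in the title. DBP2 exon and junction lie along a line (r = 0.94), DBP2 exon and intron run in opposite directions (r = -0.33), and the batch D points lie apart for RPL22B junction, YRA1 junction and DBP2 intron.

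Several of these features also differed between slide batches. With strain in the fit, batch D stood above batch A for RPL22B junction (0.53, adjusted p = 0.00233), YRA1 junction (0.44, adjusted p = 0.0205) and RPL30 exon (0.38, adjusted p = 0.0455), and below it for DBP2 intron (-0.92, adjusted p = 0.000734, limma). That was 4 of 12 features, against 18.6% of all features. Batch D held 1 replicate each of rps14aDi and rps14bDi. The other replicates of these strains were in batch C and none in batch A, so the difference between D and A was estimated through batch C. In rps14aDi the batch D replicate had MFA2 above -3 and the batch C pair below it. Slide batch and mating type cannot be told apart in that strain. DBP2 intron was also lower in batch C than in A (-0.30, adjusted p = 0.04996, limma; 3.16% of all features), and no member was called between B and A (0% of all features). The part of batch in the DBP2 intron call of rpl2bDi was not tested beyond the within-batch values and the fit with batch, where the call remained.

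Dye orientation moved 8 of 12 features, against 69.1% of all features. The Cy5 minus Cy3 orientation of a replicate, divided by 2, averaged -0.38 for RPL30 intron and -0.28 for both RPL22B exon and RPL22B intron, and was above 0 in no more than 2 of 39 replicates for any of these 3. This difference cancels in the mean of a dye pair. It was 0.08 for YRA1 intron and 0.01 for DBP2 junction.

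For each gene the exon features of the 930 others with values in all strains were ranked by their correlation over the 17 strain means. DBP2 exon was most like REX4 (r = 0.94), NOP4 (r = 0.91) and SPB1 (r = 0.90), 3 genes for factors that make or process ribosomal RNA. RPL30 exon was most like RPL32 (r = 0.91), RPL31B (r = 0.83) and RPL29 (r = 0.83), all genes of large subunit proteins. YRA1 exon was most like RPL12A (r = 0.86), RPS26B (r = 0.85) and RPS8B (r = 0.83), which encode ribosomal proteins. RPL12A and YRA1 exon both had their highest mean in rpl40bDi (0.62 and 0.41), and r without that strain was not computed. RPL22B exon was most like SMD1 (r = 0.81), for a core protein of spliceosomal particles, and the ribosomal protein genes RPS10A (r = 0.81) and RPL43B (r = 0.77). The nearest of 930 features is high by selection, and all values share arrays.

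Genes that act in the same pathways changed in few strains. Of 18 measured genes of mRNA export, the pathway of YRA1, 1 of 306 combinations was called, GLE2 in rpl40bDi (0.49 ± 0.47, SD, n = 3; adjusted p = 0.00333). GLE2 encodes a nuclear pore protein needed for export. None of 306 combinations was called for decapping and nonsense-mediated decay, the routes that remove unspliced transcripts. Among 24 DEAD-box RNA helicases, the family of DBP2, 1 of 408 was called, HAS1 in rpl40bDi (-0.40 ± 0.38, SD, n = 3; adjusted p = 0.0464, limma). HAS1 acts in ribosome biogenesis. The early spliceosome list had 4 of 544 higher and 1 lower, and 4 of these 5 were in rpl40bDi. In that strain alone, 1 of 18 export genes, 1 of 24 helicases and 4 of 32 spliceosome genes were called. Of all 948 exon features there, 64 were called higher and 31 lower. The list medians in rpl40bDi were -0.01 for export, -0.03 for decay, -0.14 for helicases and 0.06 for the spliceosome. The median over all exon features of that strain was -0.0053. In rpl2bDi the helicase median was 0.13, against 0.02 over all exon features. These differences were not tested. Over all 17 strains the list medians were 0.01 for export, -0.0042 for decay, 0.01 for helicases and 0.01 for the spliceosome. The median over all exon features was -0.00091, and 90 of their 16095 combinations were called higher and 73 lower.

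RPS14A, RPS14B, RPS9A and RPS9B, other genes with splicing feedback or their copies, each lost their own intron in 1 strain. RPS14B exon was 1.76 ± 0.13 in rps14bDi (n = 3; adjusted p = 1.04e-12, limma) and RPS9A exon 1.06 ± 0.071 in rps9aDi (n = 2; adjusted p = 3.93e-06, limma). RPS9B exon was 0.52 ± 0.021 in rps9bDi (n = 3; adjusted p = 0.00142, limma), whereas RPS14A exon was -0.05 ± 0.14 in rps14aDi (n = 3; adjusted p = 0.934, limma). RPS9A fell by 1.63 on the log2 scale in rps9bDi (adjusted p = 2.35e-11). Outside their own deletion strains, the 5 genes of this list (RPS14A, RPS14B, RPS9A, RPS9B and RPL22A) gave 81 combinations, of which 0 were called higher and 2 lower, with a median of -0.04. In rps14bDi, rps9aDi and rps9bDi none of the 12 member features was called, against 1.03%, 2.01% and 0.549% of all features. Of 68 measured large subunit protein genes, the group of RPL30 and RPL22B, 7 of 1194 combinations were called higher and 4 lower, with a list median of 0.02.

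All 3 replicates of both rpl40bDi and rpl2bDi had MFA2 below -3, so in these strains the deletion and the mating type cannot be told apart from their replicates alone. Of the 8 measured mating-type markers, 13 of 135 combinations were called higher and 8 lower. MFA2 ran from -4.65 to -3.32 in rpl40bDi and from -4.47 to -3.77 in rpl2bDi. In rpl23aDi, rpl34aDi, rps8aDi and rps14aDi only the batch C replicates had MFA2 below -3. Slide batch and mating type thus changed together within these strains. With a term for replicates with MFA2 below -3 in the fit, 1 of the 5 member calls remained, YRA1 intron in rpl40bDi. The share of all features called in that fit was not counted.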

How the data were processed

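Splicing-sensitive 2-colour microarrays were hybridised with mutant and wild-type cDNA. The deposited values are log2 ratios, mutant signal over that of wild type. The authors normalized them with the R packages marray and limma, after the Goulphar program. Tool versions and a genome build were not given in the sources used here. Direction was checked on the deleted introns. Of 9216 spots, 8742 had a gene symbol in the platform annotation and 474 had none. Spots were averaged per feature (6), then per dye pair. A limma 3.58.1 fit in R 4.3.3 gave 1 mean per strain over 39 replicates and 1457 named features, with Benjamini-Hochberg adjustment over all named features of a strain (index: 228 genes) at 0.05. A strain with 1 replicate borrowed the spread of the others. Fits were tested on simulated data. Named values were all calls and the largest same-sign means. Members, gene lists and tests were chosen with earlier results of these data known. Replicate numbers did not pair the strains. Precision is limited by the number of arrays; no sequences are shown.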

Additional observations from a re-analysis of the deposited data

Results flagged for a closer look

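YRA1 in rpl40bDi differed from the mean of the other 16 strains, by 0.42 on the log2 scale for the exon feature and by 0.56 for the intron feature (limma, adjusted p = 0.00121 and 7.55e-06, n = 3 replicates, all of them above 0 for both features). YRA1 intron also differed over all 17 strains, with a moderated F of 5.01 (adjusted p = 0.00923).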

How the results depend on the processing

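YRA1 intron in rpl40bDi was called under every alternative run, and no named value changed sign. The 4 other calls were each lost under several alternatives. The 5 member feature calls became 9 with the mutant in Cy5 only, 10 with each array as a replicate, 8 with the replicate number as a block (replicate block), 1 with a term for replicates with low MFA2 and, in 2 alternatives chosen after seeing the data, 1 with batch C replicates of a strain averaged and 10 without batch D. Index calls went from 0 to 1 with Cy3 only (YRA1 in rpl29Di), with Cy5 only (RPL30 in rps9aDi), with slide batch as a block (RPL30 in rps9aDi) and with the junction in place of the exon feature (YRA1 in rpl40bDi). Features that differed between strains, 1 as reported, were 0 with Cy5 only, 3 with slide batch as a block, 3 with each array as a replicate, 0 with batch C replicates averaged and 2 without batch D. Indices that differed went from 0 to 1 with each array as a replicate. The 2 calls against the other strains became 1 with Cy5 only, 4 with each array as a replicate and 1 with batch C replicates averaged. Leaving out 1 replicate at a time gave 3 to 8 feature calls (3 without any 1 replicate of rpl2bDi or without rpl40bDi replicate 2, and 8 without rps14aDi replicate 1), 0 to 2 features that differed between strains, 1 to 3 calls against the others, 0 to 0 index calls and indices that differed, and 3 to 6 slide batch calls in place of 5. The share of all features or genes called under each alternative was not counted, so these member counts cannot be set against a background. The causes were not tested. Same-numbered replicates of different strains deviated together little (mean r = 0.05 over 192 pairs, lowest -0.40), against -0.02 over 372 pairs with different numbers. Pairs from the same slide batch averaged 0.08 and pairs from different batches -0.04. Numbers were not used to pair samples.

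Precision was limited by the number of replicates, 1 in 4 strains, and by missing spots, most for YRA1 junction and RPL30 intron. Where no member was called, small changes remain possible.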
